A study of Mus musculus with 2 samples.

Results

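The Airn and Igf2r imprinted domain comprised 4 genes on mouse chromosome 17, Airn, Igf2r, Slc22a2 and Slc22a3, chosen by name from the 25235 genes listed in the pseudobulk files of the mouse heart. The adult library listed all 4, and the aged library listed 3, without Slc22a2. Nuclei were sorted on the DNA dye DRAQ7 from 1 frozen heart per age, of a female F1 hybrid of a C57BL/6J (BL6) mother and a CAST/EiJ (CAST) father, at 9 weeks (adult) or 78 weeks (aged). Both libraries carried the same labels apart from age: a breed field naming the C57BL/6J∆Xist-/+ x CAST/EiJ cross, a genotype field naming C57BL/6JxCAST/EiJ and a sample title with ++. The study's methods call these hearts wild-type. Only nuclei whose active X chromosome (Xa) was of BL6 origin were pooled. Each age is 1 animal, so no value below carries a replicate error, and the ages were not tested against each other. Both hearts came from 1 direction of the cross, so the parent of origin and the strain of an allele cannot be told apart.

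Genomic imprinting is the expression of a gene from only the maternal or only the paternal copy. Airn is a long noncoding RNA transcribed from the paternal chromosome, and its promoter lies within an intron of Igf2r, in a control element that is methylated on the maternal chromosome. Igf2r encodes the cation-independent mannose 6-phosphate receptor, which carries lysosomal enzymes and clears the growth factor IGF2, and it is known as a maternally expressed gene in most peripheral mouse tissues and as biallelic in neurons. Slc22a2 and Slc22a3 encode the organic cation transporters OCT2 and OCT3 and are known to be imprinted in the placenta.

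In both ages Airn was read mainly from the paternal CAST allele, as its known imprint has it, and the reads assigned to Igf2r were also mainly CAST, the side opposite to the allele for which Igf2r is known. The allelic ratio (the share of BL6 reads among reads that overlap a SNP) of Airn was 0.115 (adult) and 0.109 (aged), and that of Igf2r was 0.298 and 0.282. Neither allelic ratio moved between the libraries beyond counting error. The loci of Airn and Igf2r overlap, and the CAST excess of Igf2r cannot be told apart from Airn reads in the shared bases. Its allelic ratio therefore does not show which allele Igf2r was transcribed from. Reads of Slc22a3 were 6.55-fold fewer in the aged library, and Slc22a2 was close to undetected.

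The genes are placed here by the deposited coordinates (GRCm38), counted from 1. Airn spanned chr17:12741311-12859884 on the plus strand, and Igf2r spanned chr17:12682406-12769706 on the minus strand. The first 28396 bases of Airn lay inside Igf2r, which was 23.9% of the Airn locus and 32.5% of the Igf2r locus. The first base of Airn lay in intron 2 of the Igf2r-201 transcript of GENCODE M21, 28.395 kb from the promoter end of Igf2r, and the shared bases held 2 of its 48 exons. At its other end Airn shared 21816 bases, or 18.4% of its length, with Mas1, which encodes a receptor for angiotensin (1-7). The remaining 68362 bases of Airn, 57.7%, lay outside both genes. Slc22a2 (chr17:12583958-12628488, plus strand) ended 53.917 kb from Igf2r, and the nearer end of Slc22a3 (chr17:12419972-12507704, minus strand) was 174.701 kb away.

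The promoters of Airn and Igf2r are shown because the 2 genes are read in opposite directions across their shared bases, from starts 28.395 kb apart. Each sequence runs from 5′ to 3′ on the strand of its gene, taken from RefSeq on GRCm38.p6, with every CG dinucleotide, the site of DNA methylation, in capitals. The Airn window is chr17:12741061-12741360 (plus strand), and the Igf2r window is chr17:12769657-12769956 (minus strand).
Airn: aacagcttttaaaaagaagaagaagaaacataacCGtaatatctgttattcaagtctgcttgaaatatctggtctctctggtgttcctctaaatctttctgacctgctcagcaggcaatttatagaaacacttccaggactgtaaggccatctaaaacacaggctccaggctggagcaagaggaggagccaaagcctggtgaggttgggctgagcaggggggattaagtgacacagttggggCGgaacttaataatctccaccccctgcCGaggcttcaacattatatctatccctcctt
Igf2r: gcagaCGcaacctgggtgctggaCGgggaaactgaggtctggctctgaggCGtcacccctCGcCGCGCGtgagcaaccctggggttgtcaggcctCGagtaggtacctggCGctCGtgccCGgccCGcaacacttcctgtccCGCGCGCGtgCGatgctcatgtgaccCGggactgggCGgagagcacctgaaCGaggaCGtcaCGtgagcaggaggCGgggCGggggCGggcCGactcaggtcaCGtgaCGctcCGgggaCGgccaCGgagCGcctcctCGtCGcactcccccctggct
The Airn promoter held 3 CG in 300 bases, and 68.6% of 32851 RefSeq promoters of the same length held more. The Igf2r promoter held 34, and 7.0% held more. Slc22a2 held 8 and Slc22a3 held 5, beside a median of 7 over all promoters, of which 94.6% held at least 1 CG. CG reads the same on both strands, so the count holds for both. The Airn window ended at 12741360, shortly after the first base of Airn at 12741311. CG further into the locus was not counted, so the count does not describe the whole control element. Methylation was not measured in these files.

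SNP-overlapping reads numbered 9747535 in the adult library, against 5805807 at 78 weeks. Over autosomes 53.4% and 53.8% of reads were BL6, and the median allelic ratio of genes with 20 reads or more was 0.536 and 0.537, so an allelic ratio of 0.5 is not the middle of these data. Reads were scaled to library size (RPM, per 1000000 SNP-overlapping reads), with 95% intervals for counting error. The median aged to adult ratio of RPM over 7068 autosomal genes with 100 reads or more in both libraries was 1.16 (log2 0.21), and the ratios below should be set against it. All 5 cardiomyocyte markers were listed, at 27634 and 25778 RPM in sum, but their ratios ran from 0.580 (Ttn) to 4.11 (Actc1). The summed fibroblast, endothelial, pericyte, macrophage and smooth muscle markers were 1.59, 1.83, 1.77, 1.65 and 3.08 times as high in the aged library. The fibroblast sum was mostly Dcn, and Col3a1 (0.654), Vwf (0.953) and Abcc9 (0.853) had ratios under 1. In these pooled nuclei, fewer nuclei of a type and less RNA per nucleus cannot be told apart.

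Airn was among the most read genes. Its 6249 adult reads ranked 201 of 14037 autosomal genes with 20 reads or more, and its 4546 aged reads ranked 136 of 12770. In RPM it stood at 641 (625 to 657) at 9 weeks and 783 (760 to 806) at 78 weeks. Per kb of locus, this was 5.41 and 6.60 RPM, against 1.94 and 2.02 for Igf2r, where the number of SNPs per kb is not given for either gene.

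The adult library held 717 BL6 and 5532 CAST reads of Airn, an allelic ratio of 0.115 (0.107 to 0.123), and the aged library 494 and 4052, an allelic ratio of 0.109 (0.0998 to 0.118). The change, adult minus aged, was 0.00607 (-0.00604 to 0.0180). The intervals overlapped. Over autosomal genes, 11.8% of 12390 had allelic ratio intervals that did not overlap between the libraries, and neither Airn nor Igf2r was among them. Airn's allelic ratio was 0.3 or lower in both libraries, as was that of Igf2r, where 3.97% of adult genes, 4.37% of aged genes and 1.74% of genes in both libraries were. No member with 20 reads or more reached 0.7, where 9.8% of adult and 10.4% of aged genes stood. Among 1932 autosomal genes with 1000 reads or more in the adult library, 2 had a lower allelic ratio than Airn, Fmn1 and Gm40652, which were named after their values were seen, and among 1210 in the aged library none did.

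**Figure D1:**
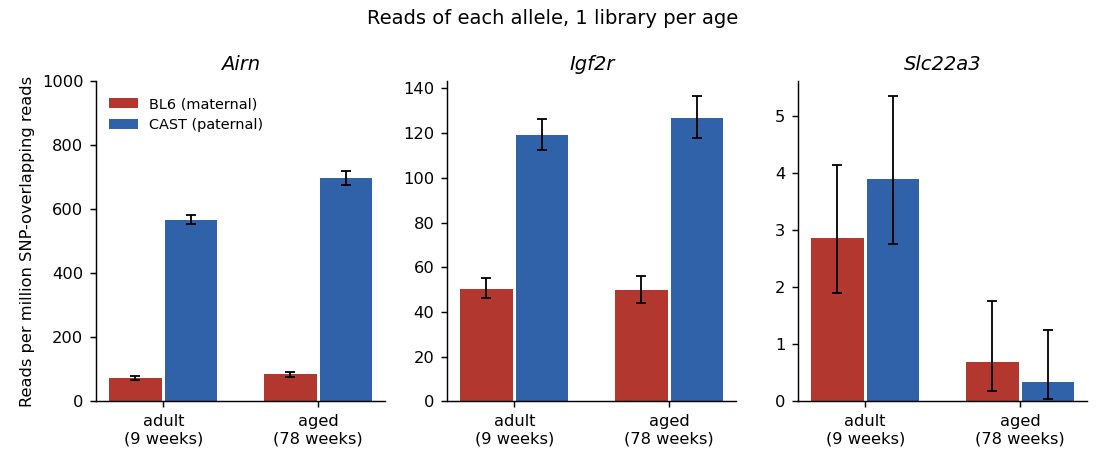
Reads of the BL6 (maternal) and CAST (paternal) allele of Airn, Igf2r and Slc22a3 in RPM, 1 library per age, with 95% Poisson intervals as error bars and a separate scale per gene. The CAST bar of Airn stood at 568 (adult) and 698 (aged), above its BL6 bar of 73.6 and 85.1.

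The alleles of Airn had similar ratios between the libraries. The BL6 allele was 1.16 times as high (1.03 to 1.30) in the aged library and the CAST allele 1.23 times (1.18 to 1.28). The gene as a whole stood at 1.22 times (1.18 to 1.27), which is 1.06 times (1.02 to 1.10) relative to the median gene. A ratio of 1.5 or more, with an interval above 1, was reached by 24.7% of 15680 autosomal genes and a ratio of 1/1.5 or less by 13.5%, and Airn and Igf2r were in neither set. Of the genes past that ratio, 64.7% were up, but 45.8% after scaling to the median gene.

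Reads assigned to Igf2r were fewer and less skewed. The adult library held 492 BL6 and 1161 CAST reads, an allelic ratio of 0.298 (0.276 to 0.320), and the aged library 289 and 737, an allelic ratio of 0.282 (0.254 to 0.310). The change was 0.0160 (-0.0196 to 0.0509), and the intervals overlapped. Among genes with 1000 reads or more, 11 of 1932 adult and 5 of 1210 aged genes had a lower allelic ratio. The 5 were Airn itself, Hnrnph3, Kcnip4, Pde1c and Pdlim3, named after their values were seen.

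In RPM Igf2r stood at 170 (162 to 178) and 177 (166 to 188), a ratio of 1.04 (0.963 to 1.13). Relative to the median gene it was 0.901 (0.832 to 0.974), so the side of 1 depended on the scale. The BL6 allele was at 50.5 and 49.8 RPM and the CAST allele at 119 and 127 RPM. Neither allele's ratio interval left 1: 0.986 (0.850 to 1.14) for BL6 and 1.07 (0.970 to 1.17) for CAST.

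The reads of Airn and Igf2r could not be kept apart where their loci overlap. In 1593 of 1593 adult and 1328 of 1328 aged pairs of a locus nested in another, the inner locus had no more reads of either allele than the outer one, including 369 of 369 and 302 of 302 pairs on opposite strands. Reads in shared bases were thus taken to count for both loci, whichever strand they came from. A CAST read in the first 28396 bases of Airn would then appear in the count of Igf2r as well.

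Under that counting, the counts themselves bound where the Airn reads lay. At most all 1653 adult and 1026 aged Igf2r reads, and all 77 and 31 Mas1 reads, could be shared with Airn. At least 4519 adult Airn reads (72.3%) and 3489 aged reads (76.7%) therefore lay in the 68362 bases of Airn alone. There the share of CAST reads was at least 85.7% for adult and 87.0% for aged reads. The share of BL6 reads there was at least 3.69% at 9 weeks and 4.61% at 78 weeks. The CAST excess of Airn therefore did not rest on bases shared with Igf2r or Mas1, in either library. Neither did the presence of BL6 reads, of which at least 212 and 196 lay in the bases of Airn alone.

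**Figure D2:**
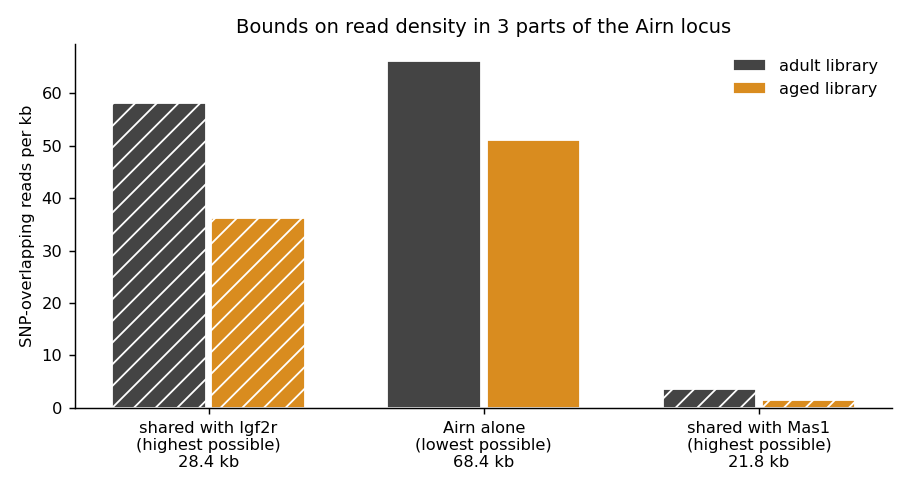
SNP-overlapping reads per kb in the part of Airn shared with Igf2r, the part of Airn alone and the part shared with Mas1, as the highest (hatched) or lowest (plain) density the counts allow. The part of Airn alone held at least 66.1 (adult) and 51.0 (aged) reads per kb, above the highest possible in either shared part.

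The Airn reads were not spread evenly. The part alone held at least 66.1 and 51.0 reads per kb, while the part shared with Igf2r could hold at most 58.2 and 36.1, and the distal part shared with Mas1 at most 3.53 and 1.42. At most 1.23% of adult and 0.682% of aged Airn reads lay in that distal part, which makes up 18.4% of the locus. The density of SNPs along the locus is not given in the files, so these densities count SNP-overlapping reads, not transcripts.

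For Igf2r the same bounds gave nothing. All of its CAST reads, and all of its BL6 reads, could lie in the shared bases, and its allelic ratio outside them could be anywhere from 0 to 1. The CAST excess of Igf2r therefore cannot be told apart from Airn reads crossing its first 2 exons and introns, and how much Igf2r was transcribed from each allele was not measured by these counts.

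Slc22a3 was read in the adult heart and much less in the aged heart. The adult library held 28 BL6 and 38 CAST reads, an allelic ratio of 0.424 (0.303 to 0.552), and the aged library 4 and 2, too few for an allelic ratio. This was 6.77 RPM (5.24 to 8.61) against 1.03 (0.379 to 2.25), a ratio of 0.153 (0.0541 to 0.350), below the limit that 13.5% of genes passed. Both alleles were lower, by a ratio of 0.240 (0.0611 to 0.686) for BL6 and 0.0884 (0.0103 to 0.342) for CAST. The adult allelic ratio interval held 0.5 and the library's median, and did not overlap that of Airn or Igf2r except with the upper end of the latter. C030013G03Rik, a locus nested within Slc22a3, held 11 adult reads and 1 aged read, and reads there may count for both.

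2 sets of cell type markers were lower in sum by more than 1.5-fold in the aged library, mesothelial (0.245) and lymphocyte (0.124). The cardiomyocyte (0.933) and adipocyte (0.953) sums were lower too, by less. The 3 mesothelial markers were all listed, at 46.5 and 11.4 RPM in sum (Wt1 328 and 59 reads, Upk3b 94 and 5, Msln 31 and 2). Of the 4 lymphocyte markers, the adult library listed 3 and the aged library 2, at 29.2 and 3.62 RPM, most of it Themis with 272 and 16 reads. Cd3e had 9 and 0 reads, Ms4a1 had 4 and 5, and Ighm was listed in neither library. The part of any of these sets in the Slc22a3 values was not tested. Slc22a2 had 2 BL6 reads and 1 CAST read in the adult library.

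**Figure D3:**
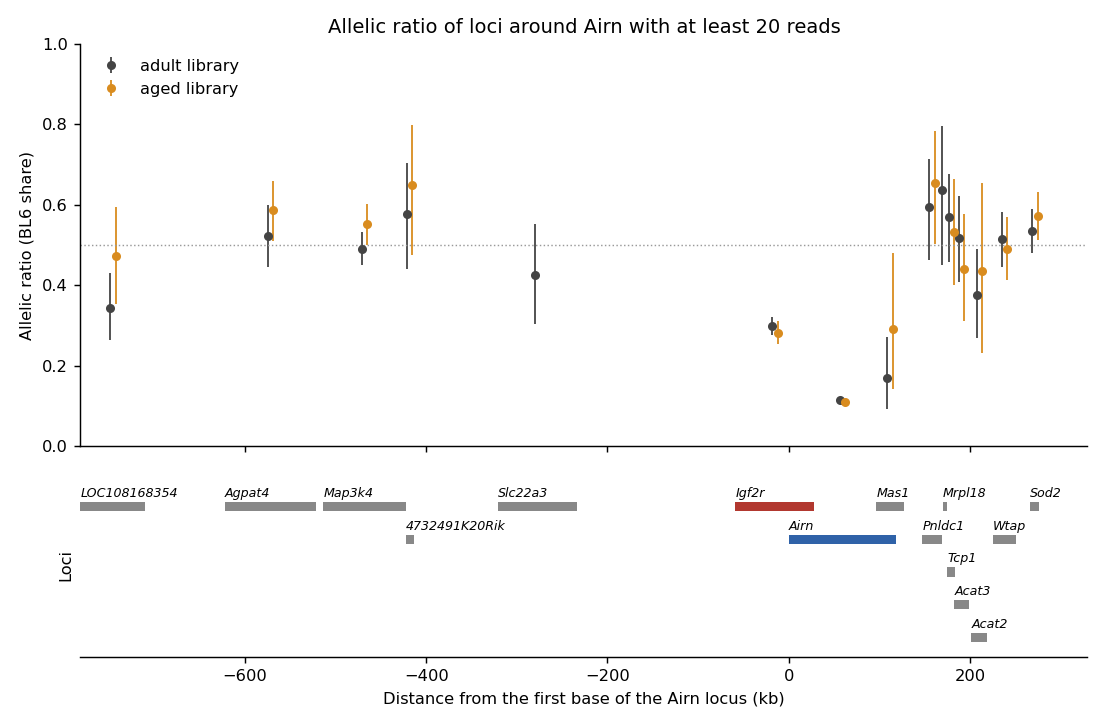
Top, allelic ratio (BL6 share) with exact 95% intervals of the loci around Airn with 20 reads or more, by distance in kb of the locus middle from the first base of Airn, shifted slightly between libraries, and bottom, the loci. Igf2r, Airn and Mas1 lay at 0.298 or lower, and Park2, which runs beyond the plotted stretch, is left out.

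Outside the members, Mas1 had the lowest allelic ratio of the measured genes within 500 kb, in both libraries. Of 24 listed neighbours 12 had 20 reads or more in both libraries, and their median allelic ratio was 0.520 and 0.543. Mas1 was the only one at 0.3 or lower in both, with 13 BL6 and 64 CAST adult reads (allelic ratio 0.169, 0.0931 to 0.271) and 9 and 22 aged ones (0.290, 0.142 to 0.480). As 72.5% of Mas1 lies inside Airn, its reads cannot be told apart from those of Airn either, and without loci that overlap another none of 6 neighbours was at 0.3 or lower.

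The other measured neighbours were less skewed. Acat2, an acetyl-CoA acetyltransferase, was at 0.375 and 0.435, Wtap, a subunit of the RNA methylation complex, at 0.514 and 0.491, and Sod2, the mitochondrial superoxide dismutase, at 0.535 and 0.572. Map3k4, a kinase of stress signalling, was at 0.491 and 0.552. Park2, the ubiquitin ligase parkin, was the one with separate intervals, at 0.601 and 0.656, and only part of its locus lay within 500 kb. The others were LOC108168354 (0.344 and 0.472), Agpat4 (0.523 and 0.586), 4732491K20Rik (0.576 and 0.649), Pnldc1 (0.594 and 0.653), Tcp1 (0.570 and 0.533) and Acat3 (0.516 and 0.441). In reads, Agpat4 rose 1.68-fold (1.35 to 2.08), and Acat2 (0.483) and Park2 (0.641) fell. Plg, which encodes plasminogen, had 1 adult read.

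The imprinted domain was set beside 32 other imprinted genes, a list chosen with earlier results known. Of these, 16 had 20 reads or more in both libraries, and 12 lay on the side of 0.5 that their known imprint gives, with none on the other side. Meg3, Rian and Mirg lie close together on chromosome 12, and Snrpn, Snurf and Snhg14 on chromosome 7, so the 12 are not separate loci. The intervals of Asb4, H13, Impact and Zdbf2 did not place them on a side in both libraries. Of the maternally expressed genes with the most reads, Grb10 was at 0.998 and 0.995 and Meg3 at 1 and 0.995. Of the paternally expressed ones, Kcnq1ot1, another antisense noncoding RNA, was at 0.389 and 0.162 and Sgce at 0.0171 and 0.0161. The intervals of Kcnq1ot1 (0.370 to 0.409 and 0.138 to 0.188) did not overlap, as in 11.8% of autosomal genes. Reads that Kcnq1ot1 may share with a locus on the other strand were not examined. In 6 of 8 paternally expressed genes on their known side the share of BL6 reads was lower than that of Airn, in both libraries, with a median of 4.25% and 2.88% over the 8. In 4 of the 8 (adult) and 5 of the 8 (aged) it was also below the lowest share the bounds allow for Airn alone. Snrpn, Snurf and Snhg14 are among the 8, and Snrpn and Snurf share bases, so reads there may count for both. The 8 are therefore not independent cases. Being on the known side itself selects low BL6 shares, so these counts do not place Airn among paternally expressed genes at large. Impact (48.5% and 47.2%) and Zdbf2 (53.6% and 59.3%), left out by that condition, had higher shares than Airn.

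**Figure D4:**
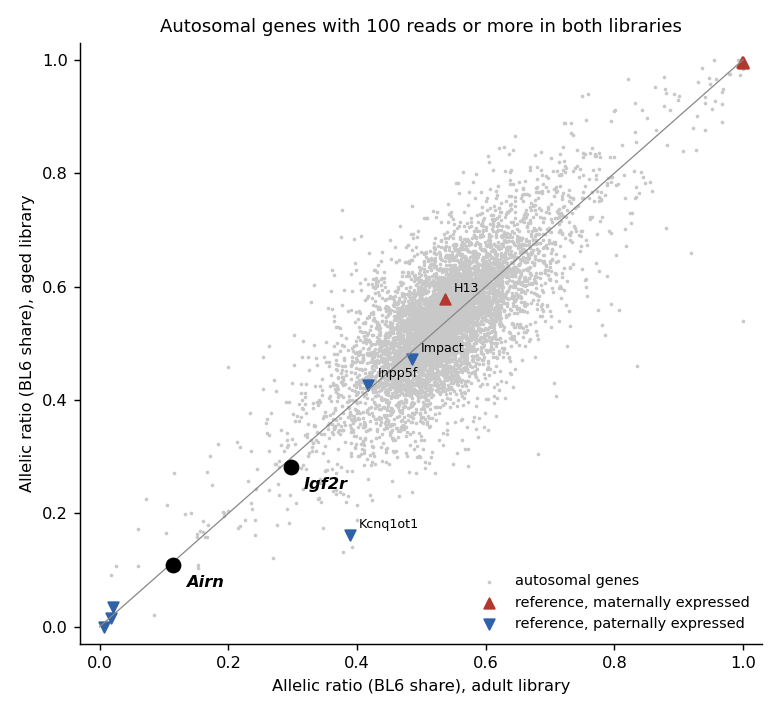
Allelic ratio (BL6 share) in the adult against the aged library of autosomal genes with 100 reads or more in both (grey), imprinted reference genes (triangles) and Airn and Igf2r (black), with a line of equal allelic ratio. Airn and Igf2r lay near the line, at 0.115 and 0.109 and at 0.298 and 0.282.

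By the pair of allelic ratios over the 2 libraries, the genes most like Airn among 7067 were Gm32813 (0.107 and 0.116, a distance of 0.0106), Gm33697 and Gm40124, on chromosomes 13, 7 and 3. The genes most like Igf2r were Cds1 (0.302 and 0.289, a distance of 0.00851), Napb and Acbd4, on chromosomes 5, 2 and 11. None lay on chromosome 17.

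Genes of the IGF system were read beside Igf2r. Igf2, the paternally expressed gene of the ligand IGF2, had 2 adult and 4 aged reads, all CAST. For the lists, a gene counted as measured with 20 reads or more in each library, and of 12390 such autosomal genes 26.8% rose and 11.3% fell, with a median ratio of 1.17 (17.3% and 17.4% on the scale of the median gene). Of 12 measured genes of the IGF system, 3 rose (25%) and 2 fell (16.7%), with a median ratio of 0.895. The share that rose was near that of all genes. On the scale of the median gene 3 rose and 5 fell, with a median ratio of 0.773. The binding proteins Igfbp7 (179 and 354 RPM) and Igfbp4 (27.4 and 53.1 RPM) and the protease Pappa, which cuts binding proteins, rose 1.97-, 1.94- and 1.80-fold. Stc2, an inhibitor of that protease, fell to 0.553. The binding protein Igfbp5 fell to 0.582 (0.497 to 0.679), and Igfbp3 (0.930) and Igfbp6 (1.43) did not pass 1.5-fold. These 3 binding proteins were named after their values were seen. Igf1 (ratio 0.701), Igf1r (1.40) and Insr (0.732) did not pass 1.5-fold, but on the scale of the median gene Igf1 (0.605) and Insr (0.632) did. Pappa2, another such protease, with 11 and 35 reads (ratio 5.34, 2.65 to 11.7), and Stc1, with 9 and 14 (2.61, 1.05 to 6.84), were under 20 reads in at least 1 library and were not counted. They were named after their values were seen. The part of the marker shifts given above in this and the next lists was not tested.

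Of 27 measured genes of mannose 6-phosphate sorting and the lysosome, 7 rose (25.9%) and 3 fell (11.1%), shares close to the 26.8% and 11.3% of all genes, with a median ratio of 1.25 against 1.17. On the scale of the median gene 5 rose and 4 fell. The cathepsin Ctsb rose 2.53-fold, Nagpa, which uncovers the mannose 6-phosphate tag, 1.98-fold and Psap 1.82-fold, whereas the cathepsin Ctsl (0.471) and Gnptab, which makes the tag (0.656), fell. M6pr, the cation-dependent receptor for the same tag, had 23 and 20 reads.

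Of organic cation handling, 4 measured genes are reported here, of which 3 fell (4 on the scale of the median gene), where 11.3% of all genes fell. Other genes of the list are not reported here, so these counts do not give the direction of the list as a whole. Slc47a1, an exporter (0.488), Slc22a5, the carnitine transporter (0.600), and Slc22a21 (0.616) fell, as Slc22a3 did. Slc22a4 stood at 0.717.

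Of 18 measured genes of silencing and imprint maintenance, 5 rose (27.8%) and 1 fell (5.56%), with a median ratio of 1.25 against 1.17 over all genes, and on the scale of the median gene 3 rose and 1 fell. The share that rose was near the 26.8% of all genes. Ehmt2, a histone H3 lysine 9 methyltransferase, rose 1.85-fold, and Zfp57 (1.77) and Zfp445 (1.76), which bind methylated imprint control regions, rose too. Ezh2, of the Polycomb complex, fell to 0.637. Smchd1 (1.08) and Hnrnpk (1.45) did not pass 1.5-fold.

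**Figure D5:**
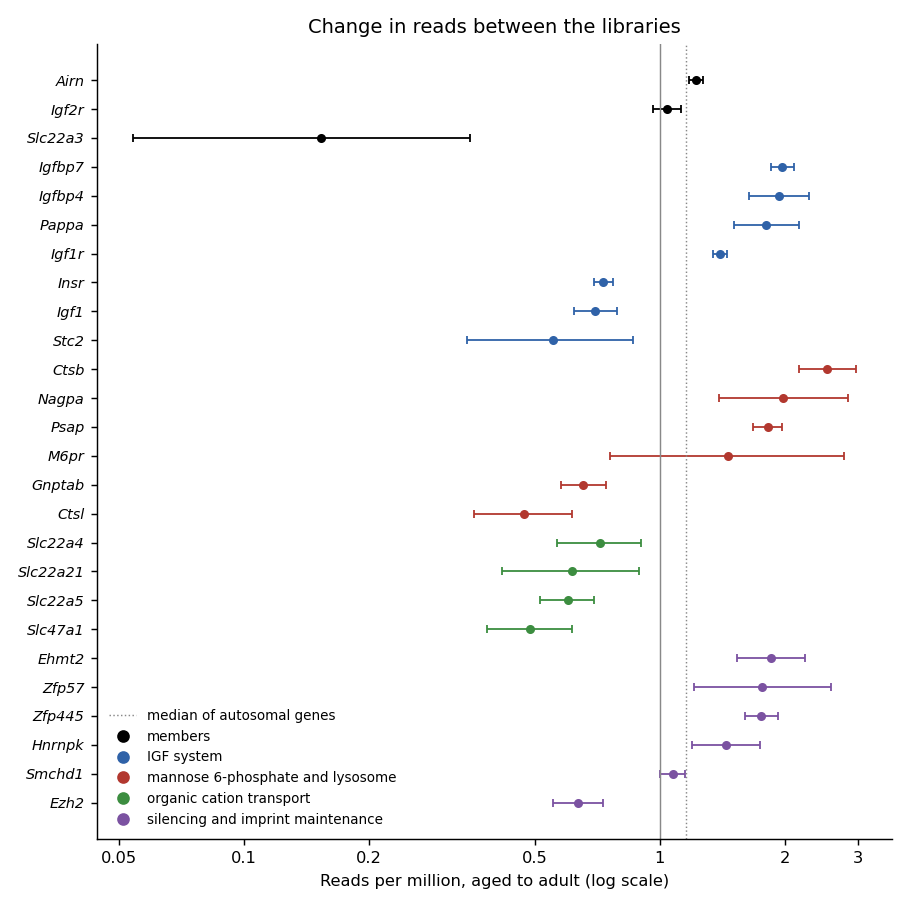
Aged to adult ratio of RPM (log axis) with exact 95% intervals of Airn, Igf2r and Slc22a3 and the named genes of 4 lists with 20 reads or more in total. The solid line is at 1 and the dotted line at the median of autosomal genes, 1.16, and Slc22a3, at 0.153, lay furthest left.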

How the data were processed

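Single-nucleus 3′ libraries of 1 adult and 1 aged heart were made by the authors, who aligned the reads (Cell Ranger 7.1.0 and Seurat 5.1.0 are listed in the submitters' processing notes), pooled the nuclei with a BL6 Xa and counted SNP-overlapping reads per gene and allele with Allelome.PRO2 and the RefSeq annotation of mm10 (GRCm38). The deposited counts are raw reads, split into BL6 and CAST. The deposited allelic ratio is a fraction rounded to 2 decimals and the deposited allelic score was not used. For the expression matrices the authors name CellBender for ambient RNA and DoubletFinder for doublets, and neither is stated for the nuclei counted here. Nor is collapsing of duplicates. One file name disagreed with the aged sample's label on age, and the label's 78 weeks was used.

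Allelic ratios and RPM were computed from the counts in Python 3.11.15 (numpy 2.4.6, pandas 2.3.3, scipy 1.17.1). Shares have exact Clopper-Pearson intervals, counts exact Poisson intervals and ratios exact conditional binomial intervals. The Newcombe method was used for the change in allelic ratio between libraries. Intervals are at 95% and for counting error only, since reads may not be independent molecules. Genes needed 20 reads in a library for an allelic ratio and 20 in total for a ratio, and list genes and neighbours needed 20 in each library. A ratio of 1.5 or more with an interval excluding 1 counted as up or down. Ages were not tested against each other, each being a single library. The scripts were tested on simulated data.

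The members and gene lists were chosen with earlier results of these data known. Named were the 4 members, measured genes within 500 kb and Plg and Mas1, a set group of list genes with up to 4 per list of the largest ratio past 1.5-fold and 100 reads in total, the 3 genes nearest in allelic ratio to Airn and to Igf2r, and the most read imprinted genes. Strand and exon content came from GENCODE M21 and promoters from RefSeq. Some genes of the neighbourhood and of the organic cation list are not reported here, and that list was used without them.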

Additional observations from a re-analysis of the deposited data

How the results depend on the processing

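Of 66 alternative values for 26 results, 47 stayed and 19 moved. An allelic ratio, a change or a ratio of reads of a member stayed when it lay within the counting interval of the reported value, and a count, share or median stayed when within 1.5 times of it. No change past 1.5-fold turned direction. Correcting for the excess of BL6 reads gave Airn an allelic ratio of 0.102 and 0.0949 and Igf2r 0.270 and 0.252, in the adult and aged library. The share of adult genes with a lower allelic ratio than Airn was 1.15% with a minimum of 10 reads and 0.408% with 100, and lower than Igf2r 2.44% with 50 and 1.86% with 100. Genes at the low limit in both libraries, 216 as reported, were 143 at a limit of 0.25, and 112 and 56 with minimums of 50 and 100 reads. On the scale of the median gene the ratio was 1.06 for Airn and 0.901 for Igf2r, which crossed 1, and 8 IGF genes passed 1.5-fold in place of 5. With 20 reads in total in place of 20 in each library, chosen after seeing the data, 7 IGF genes passed. With a fold of 2, 3333 genes passed in place of 5996. With 100 reads 1 of the organic cation genes reported passed in place of 3, and without overlapping loci 0 neighbours were at 0.3 or lower in place of 1. Spreading the Airn reads evenly over its locus left 320 adult and 171 aged BL6 reads of Igf2r outside the shared bases, where the counts alone allow 0, but it would put 1150 and 836 reads on the part shared with Mas1, which held at most 77 and 31.

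No paired analysis was possible because there was 1 library per age and no replicate number to pair. Each value is of 1 animal, so age, animal and library cannot be told apart. With 1 direction of the cross, an excess of CAST or BL6 reads cannot be assigned to parent of origin or to strain. Depth limits Slc22a3 in the aged library, where 6 reads gave no usable allelic ratio, and Slc22a2 in both. SNP density, duplicates and strand are not given with the counts.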
